A study of Mus musculus with 22 samples.

Results

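Transcripts of 35 genes that mark microglia and macrophages were followed across the RNA libraries of the study, out of 44792 genes in the count table. The members were taken by gene symbol from a list of names. All 35 were found, and all 35 passed the filter on low counts, which left 18931 genes. They comprise the C1q chains of complement, receptors of resting microglia, immune adaptors and Fc receptors, the transcription factor gene Spi1, leukocyte cytoskeleton and membrane genes, lysosomal and antigen-handling genes, innate sensors, and genes of phagocyte activation and secretion.

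The study measured RNA and DNA methylation in C57BL/6 mouse Müller glia, which span the retina and support its neurons. These cells were purified by flow cytometry on a GFP reporter driven by Rlbp1, a retinoid carrier gene that Müller glia express. RNA came from 2 young libraries (mice of 2 to 3 months), from 3 NMDA libraries (mice of the same age that had received NMDA, an agonist of glutamate receptors that kills inner retinal neurons, into the vitreous 2 days earlier), from 2 aged libraries (mice of 1.5 years) and from 3 libraries of retinal progenitor cells (RPCs) of embryonic day 12.5. For RPCs no sort is stated, and no group injected without NMDA is described. The labels do not say how many mice gave each library.

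Microglia are the resident macrophages of the retina. They arise from yolk sac progenitors, are kept alive by signals through the receptor Csf1r, and depend on the transcription factor PU.1, which Spi1 encodes. Resting microglia carry receptors such as Cx3cr1, P2ry12 and Tmem119 with which they survey neurons and glia. After neuronal death phagocytes take up debris, and blood monocytes can enter the tissue and become macrophages.

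Levels are given in CPM, counts scaled to the size of the library. Libraries held 10149390 to 36486072 counts. Müller genes were abundant in every sorted library: Glul, the glutamine synthetase gene, stood at 2610 to 33663 CPM in sorted cells and 519 to 551 in RPCs, and Rlbp1 at 645 to 4240 against 3 to 7. After NMDA both were lower than in young cells, and they were lowest in NMDA replicate 2. Genes with fewer than 10 counts made up 6.35% and 5.52% of those detected in young replicates 1 and 2, and 14.3% to 29.5% in the other libraries, so a level of 0 in a young library may not have the meaning it has in the others. Where both young libraries stood at 0, a fold is given as a lower bound, set with 3 counts over the pooled young libraries (0.118 CPM), on the assumption that no low counts were removed. In the aged libraries 61.7% and 63.4% of genes with 4 to 60 counts had an even count, against 50.5% to 53.9% elsewhere, so their counts may not be single reads.

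Summed over the 35 genes, the level was 21.5 and 158 CPM in young replicates 1 and 2, 1014, 8756 and 1855 CPM in NMDA replicates 1, 2 and 3, 172 and 204 CPM in aged replicates 1 and 2, and 131, 156 and 121 CPM in RPCs. Every NMDA library lay above every other library, and NMDA replicate 2 lay far above the other NMDA libraries, with 0.876% of its counts in these genes. In bulk RNA fewer cells of a type and less RNA per cell cannot be told apart. Of the 35 genes, 29 stood at 0 in young replicate 1 and 15 in young replicate 2. No member stood at 0 in either aged library or in NMDA replicates 1 and 2. In NMDA replicate 3 Siglech alone did, and in RPCs 2, 2 and 5 members did.

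**Figure D1:**
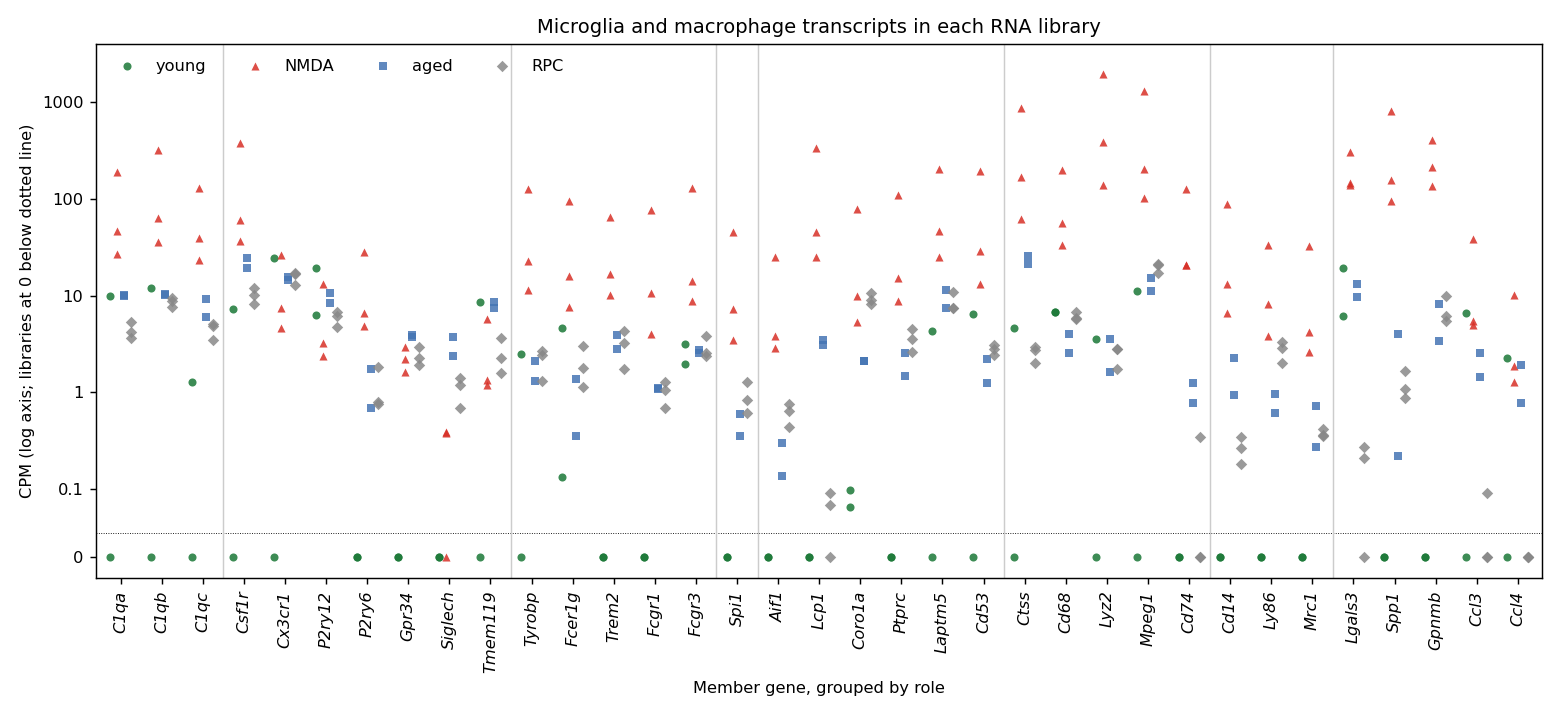
Level of each of the 35 genes (x axis, grouped by role) in each RNA library, in CPM on a log axis, with libraries at 0 drawn below the dotted line. Points are single libraries. NMDA libraries are the highest for most genes, and for Cx3cr1, P2ry12, Gpr34, Siglech, Tmem119, Coro1a, Ccl3 and Ccl4 they overlap the other libraries.

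The first comparison asks how these transcripts changed in sorted cells after NMDA injury. With edgeR's quasi-likelihood test over all 18931 genes and an adjusted p under 0.05, 28 of the 35 genes were higher in NMDA than in young libraries, while 30.6% of all genes were called higher. None was called lower (14.3% of all genes were), by edgeR at an unadjusted p under 0.05 also 0, and by DESeq2 0. In 29 genes every NMDA library lay above both young libraries, as it did for 37.1% of all genes. The median change of the members was 6.91 on the log2 scale, or 6.49 with genes absent from young cells at their bound, against 0.26 for all genes. Leaving out NMDA replicate 2 left 23 members higher and 1 lower (27.3% of all genes higher). Leaving out young replicate 1 left 26 higher (36.4% of all genes), and leaving out young replicate 2 left 33 (41.7%). A fit of the young and NMDA groups alone, which estimates the spread from 5 libraries, called 18 higher (20.9%).

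C1qa, C1qb and C1qc encode the chains of C1q, the molecule that starts the classical complement pathway and tags material for uptake. C1qa stood at 0 and 9.85 CPM in young cells and at 27.1, 192 and 46.9 CPM in NMDA replicates 1, 2 and 3 (log2 change 4.35 ± 1.43 (SE), edgeR adjusted p = 0.0361). C1qb stood at 0 and 11.9 against 36, 318 and 63.1 CPM (4.73 ± 1.49, edgeR adjusted p = 0.03). C1qc stood at 0 and 1.28 against 23.1, 129 and 39.0 CPM (6.91 ± 1.26, edgeR adjusted p = 0.00271). All NMDA libraries lay above both young libraries for each of these chains, and replicate 2 was the highest. Without NMDA replicate 2, C1qc still passed (edgeR adjusted p = 0.00887), and C1qa and C1qb did not (0.142 and 0.12).

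Receptors of resting microglia split. Csf1r, the receptor for the survival factors Csf1 and Il34, stood at 0 and 7.29 CPM in young cells and 36.4, 375 and 60.6 CPM after NMDA, and was called higher (log2 5.66 ± 1.52, edgeR adjusted p = 0.0157), though not without NMDA replicate 2 (0.0535). P2ry6, a nucleotide receptor that promotes phagocytosis, was at 0 in both young libraries and at 4.79, 28.3 and 6.57 CPM after NMDA, at least 112-fold higher in the mean and at least 40.5-fold in the lowest NMDA library (edgeR adjusted p = 0.00222). Gpr34, a lysophospholipid receptor, was also at 0 in young cells, and stood at 1.64, 2.19 and 2.95 CPM after NMDA, at least 19.1-fold higher (edgeR adjusted p = 0.000478). The latter is the only member for which NMDA replicate 3 exceeded replicate 2.

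The other receptors of this group did not pass. Cx3cr1, the receptor for the neuronal chemokine fractalkine, stood at 0 and 24.2 CPM in young cells and 4.6, 26.5 and 7.46 CPM after NMDA (log2 0.22 ± 1.41, edgeR adjusted p = 0.919). P2ry12, the ADP receptor that guides microglial processes, stood at 6.31 and 19.3 against 2.39, 13.3 and 3.23 CPM (log2 -0.90 ± 0.74, edgeR adjusted p = 0.356). Tmem119, a membrane protein gene that marks microglia, stood at 0 and 8.57 against 1.2, 5.67 and 1.34 CPM (log2 -0.51 ± 1.42, edgeR adjusted p = 0.8). Their young and NMDA libraries overlapped, and the SEs of Cx3cr1 and Tmem119 leave room for changes of several fold in either direction. Without young replicate 2, which held all young counts of these 2 genes, Cx3cr1 (log2 10.99, edgeR adjusted p = 0.0025) and Tmem119 (log2 8.76, edgeR adjusted p = 0.00723) were called higher. Without NMDA replicate 2, P2ry12 was the 1 member called lower (log2 -2.07 ± 0.56, edgeR adjusted p = 0.0233). Siglech, a sialic acid-binding receptor gene, was at 0 in young cells and at 0.378, 0.393 and 0 CPM after NMDA (edgeR adjusted p = 0.0655). P2ry12 lies inside Med12l and Gpr34 inside Cask, and the strand setting of the authors' counting is not given in the sources used here, so reads of these pairs may be shared.

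Tyrobp encodes DAP12, the adaptor through which Trem2 and other receptors signal. It stood at 0 and 2.46 CPM in young cells and at 11.3, 127 and 23 CPM after NMDA (log2 5.66 ± 1.56, edgeR adjusted p = 0.0172, and 0.0707 without NMDA replicate 2). Trem2, a lipid-sensing receptor of phagocytes, was at 0 in both young libraries and at 10.1, 65.3 and 16.8 CPM after NMDA, at least 85.2-fold higher even in the lowest NMDA library (edgeR adjusted p = 0.00118). Among receptors for antibody, Fcgr1 was at 0 against 4.03, 77.6 and 10.7 CPM, at least 34.1-fold higher in the lowest library (edgeR adjusted p = 0.00417). Fcgr3 stood at 1.97 and 3.15 against 8.82, 128 and 14.1 CPM (log2 4.42 ± 1.19, edgeR adjusted p = 0.0159). It was no longer called without young replicate 1. Fcer1g, the signalling chain that these receptors share, stood at 0.132 and 4.63 against 7.69, 94.5 and 15.9 CPM and missed the threshold (log2 4.21 ± 1.54, edgeR adjusted p = 0.0526), although all NMDA libraries lay above the young ones.

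Spi1 was at 0 in both young libraries and at 3.47, 45.1 and 7.29 CPM after NMDA, at least 29.3-fold higher in the lowest NMDA library (edgeR adjusted p = 0.00353, and 0.00156 without NMDA replicate 2). Its protein, PU.1, binds purine-rich DNA around the core GGAA. RefSeq promoter stretches (GRCm38.p6, 250 bases before to 50 after the gene start) were at hand for 25 of the 35 members. The 8-letter motif GAGGAAGT, searched on both strands, was in 4 of these 25 (16%), against 3.69% of the promoters of all 27025 genes. The shorter AGGAAGT, which every GAGGAAGT contains, was in 10 (40.0% against 10.7%). The other motifs searched were an AP-1 site, TGANTCA, in 12% of members and 8.97% of all, an E-box, CACGTG, in 8.0% and 8.09%, and a composite motif of PU.1 with IRF factors in 0 members and 0.266% of all. A match is a run of letters and not a measured binding site. Shown are 100 bases, 5′ to 3′ on the gene's strand, around the match for members that carry the longer motif (Ctss, Cd53, Spp1 and C1qc, which were all called higher after NMDA) and for P2ry12 and C1qb, the nearest to their starts among those that carry the shorter one alone. Capitals mark the match, read on the opposite strand in Ctss, Cd53, C1qc and C1qb.
Ctss, chr3:95526706-95526805, plus strand: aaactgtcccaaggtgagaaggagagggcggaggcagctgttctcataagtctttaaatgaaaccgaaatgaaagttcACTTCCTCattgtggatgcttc
Cd53, chr3:106790130-106790229, minus strand: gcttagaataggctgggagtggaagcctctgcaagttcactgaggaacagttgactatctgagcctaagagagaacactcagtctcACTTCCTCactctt
Spp1, chr5:104434952-104435051, plus strand: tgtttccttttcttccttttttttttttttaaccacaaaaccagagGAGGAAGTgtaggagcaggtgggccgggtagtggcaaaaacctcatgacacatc
C1qc, chr4:136893056-136893155, minus strand: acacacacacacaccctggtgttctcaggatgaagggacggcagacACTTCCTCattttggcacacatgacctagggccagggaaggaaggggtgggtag
P2ry12, chr3:59262985-59263084, minus strand: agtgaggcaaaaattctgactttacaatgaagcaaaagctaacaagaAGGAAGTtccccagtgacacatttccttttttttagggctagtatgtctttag
C1qb, chr4:136886201-136886300, minus strand: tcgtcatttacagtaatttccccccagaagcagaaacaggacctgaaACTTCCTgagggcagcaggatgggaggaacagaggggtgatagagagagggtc
The capitals begin 2 bases before the annotated start in Ctss, 7 bases after it in Cd53, and 113, 195, 52 and 53 bases before it in Spp1, C1qc, P2ry12 and C1qb. P2ry12, which did not pass after NMDA, carries the shorter motif as C1qb does.

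The leukocyte cytoskeleton and membrane genes Aif1, Lcp1, Coro1a, Ptprc, Laptm5 and Cd53 were all called higher after NMDA. Ptprc encodes CD45, a surface phosphatase of leukocytes and microglia. It was at 0 in young cells and at 8.76, 111 and 15.03 CPM after NMDA, at least 74.0-fold higher in the lowest library (edgeR adjusted p = 0.0031). Lcp1, an actin-bundling protein gene of leukocytes, was at 0 against 24.8, 334 and 45.9 CPM, at least 209-fold higher in the lowest library (edgeR adjusted p = 0.00268). Aif1, which encodes the microglial antigen IBA1, was at 0 against 2.84, 25.3 and 3.84 CPM, at least 24.0-fold higher in the lowest library (edgeR adjusted p = 0.00357). The NMDA libraries kept one order in these genes, with replicate 2 highest and replicate 1 lowest.

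Coro1a, an actin regulator of leukocytes, had 2 counts in the pooled young libraries against 1647 after NMDA, a ratio of pooled levels of 404 (95% interval 112 to 3340, exact Clopper-Pearson, counting error only; edgeR adjusted p = 0.00278). Laptm5, a lysosomal membrane protein gene of immune cells, stood at 0 and 4.34 against 24.96, 204 and 46.5 CPM (log2 5.63 ± 1.43, edgeR adjusted p = 0.0122). Cd53, a tetraspanin of leukocytes, stood at 0 and 6.5 against 13.05, 195 and 28.8 CPM (log2 4.79 ± 1.63, edgeR adjusted p = 0.0402). Cd53 was the least firm call of the group, since it was lost without NMDA replicate 2 (0.193) and without young replicate 1.

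All 5 lysosomal and antigen-handling genes were called higher after NMDA, and each passed without NMDA replicate 2. Lyz2, the lysozyme gene of macrophages and monocytes, stood at 0 and 3.55 CPM in young cells and 139.9, 1946 and 386 CPM after NMDA (log2 9.17 ± 1.65, edgeR adjusted p = 0.00257). Mpeg1, which encodes the pore-forming protein perforin-2, stood at 0 and 11.2 against 102, 1300.4 and 204 CPM (log2 6.81 ± 1.63, edgeR adjusted p = 0.00951). Ctss, the protease cathepsin S, stood at 0 and 4.63 against 62.6, 876 and 167 CPM (log2 7.60 ± 1.57, edgeR adjusted p = 0.0049). The libraries did not overlap in any of these genes.

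Cd68, a lysosomal glycoprotein gene, had close young libraries, at 6.84 and 6.8 CPM, and stood at 33.4, 201 and 56.9 CPM after NMDA (log2 3.94 ± 0.76, edgeR adjusted p = 0.00352). Cd74, the invariant chain that guides MHC class II proteins, was at 0 in young cells and at 20.5, 126 and 20.6 CPM after NMDA, at least 174-fold higher in the lowest library (edgeR adjusted p = 0.00245). It is the member in which NMDA replicates 1 and 3 were most alike.

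The innate sensors Cd14, Ly86 and Mrc1 were at 0 in both young libraries and were called higher. Cd14, the co-receptor for bacterial lipopolysaccharide, stood at 6.62, 89.1 and 13.2 CPM after NMDA, at least 55.9-fold higher in the lowest library (edgeR adjusted p = 0.00343). Ly86, which encodes a partner of a Toll-like receptor relative, stood at 3.84, 33.4 and 8.18 CPM (at least 32.5-fold, edgeR adjusted p = 0.00193). Mrc1, the mannose receptor of tissue macrophages, stood at 2.58, 32.8 and 4.17 CPM (at least 21.8-fold, edgeR adjusted p = 0.00487). Each of them passed without NMDA replicate 2.

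Of the genes of activation and secretion, Spp1, Gpnmb and Lgals3 were called higher. Gpnmb, a lysosome-associated glycoprotein gene of phagocytes, was at 0 in young cells and at 137, 411 and 214 CPM after NMDA, at least 1158-fold higher in the lowest library (edgeR adjusted p = 0.000142). Spp1, the secreted protein osteopontin, was at 0 against 94.7, 816 and 158 CPM, at least 800.5-fold higher in the lowest library (edgeR adjusted p = 0.00314). Lgals3, the sugar-binding protein galectin-3, stood at 6.18 and 19.2 against 141, 302 and 147 CPM (log2 4.09 ± 0.59, edgeR adjusted p = 0.000911). In Lgals3 and Gpnmb the NMDA libraries lay closer together than in most members, and neither call depended on replicate 2.

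The chemokine genes Ccl3 and Ccl4, whose products attract leukocytes, did not pass. Ccl3 stood at 0 and 6.6 CPM in young cells and 4.92, 38.7 and 5.4 CPM after NMDA (log2 2.45 ± 1.63, edgeR adjusted p = 0.255). Ccl4 stood at 0 and 2.27 against 1.89, 10.04 and 1.28 CPM (log2 2.11 ± 1.71, edgeR adjusted p = 0.358). In both genes young replicate 2 lay above at least 1 NMDA library. The annotated spans of these neighbours overlap, so their counts may not be separate.

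The NMDA libraries were then compared with each other. NMDA replicate 2 was the highest of the 3 in 34 of 35 members, and replicate 3 lay above replicate 1 in 33. Replicate 2 was at least 4-fold above each of the other NMDA libraries in 27 members, against 3.46% of the 16629 genes with at least 1 CPM in an NMDA library, and at least 2-fold in 32, against 7.74%. The median ratio of replicate 2 to replicate 1 was 8.68 over the members, from 1.04 in Siglech to 19.2 in Fcgr1, and 0.979 over all genes. The median ratio of replicate 2 to replicate 3 was 5.38, and that of replicate 3 to replicate 1 was 1.70 (all genes 1.01 and 0.984). These are single libraries of 1 group, so the ratios carry no test.

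The members did not differ by 1 common factor. Fcgr1 (ratio of replicate 2 to 1 of 19.2, 95% interval 14.97 to 25.1, exact Clopper-Pearson, counting error only), Cd53 (14.9, 12.96 to 17.2), Fcgr3 (14.5, 12.2 to 17.3), Ctss (14.0, 13.1 to 14.9) and Lyz2 (13.9, 13.3 to 14.5) stood at the upper end. At the lower end stood Gpr34 (1.34, 0.79 to 2.28), Lgals3 (2.15, 2.04 to 2.25) and Gpnmb (3.00, 2.86 to 3.15). The C1q chains stood between them, at 7.07, 8.83 and 5.58, as did P2ry12 at 5.55, Cx3cr1 at 5.76 and Tmem119 at 4.73. The 8 members that were not 4-fold above both other libraries were C1qc, Cx3cr1, Gpr34, Siglech, Trem2, Cd68, Lgals3 and Gpnmb.

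**Figure D2:**
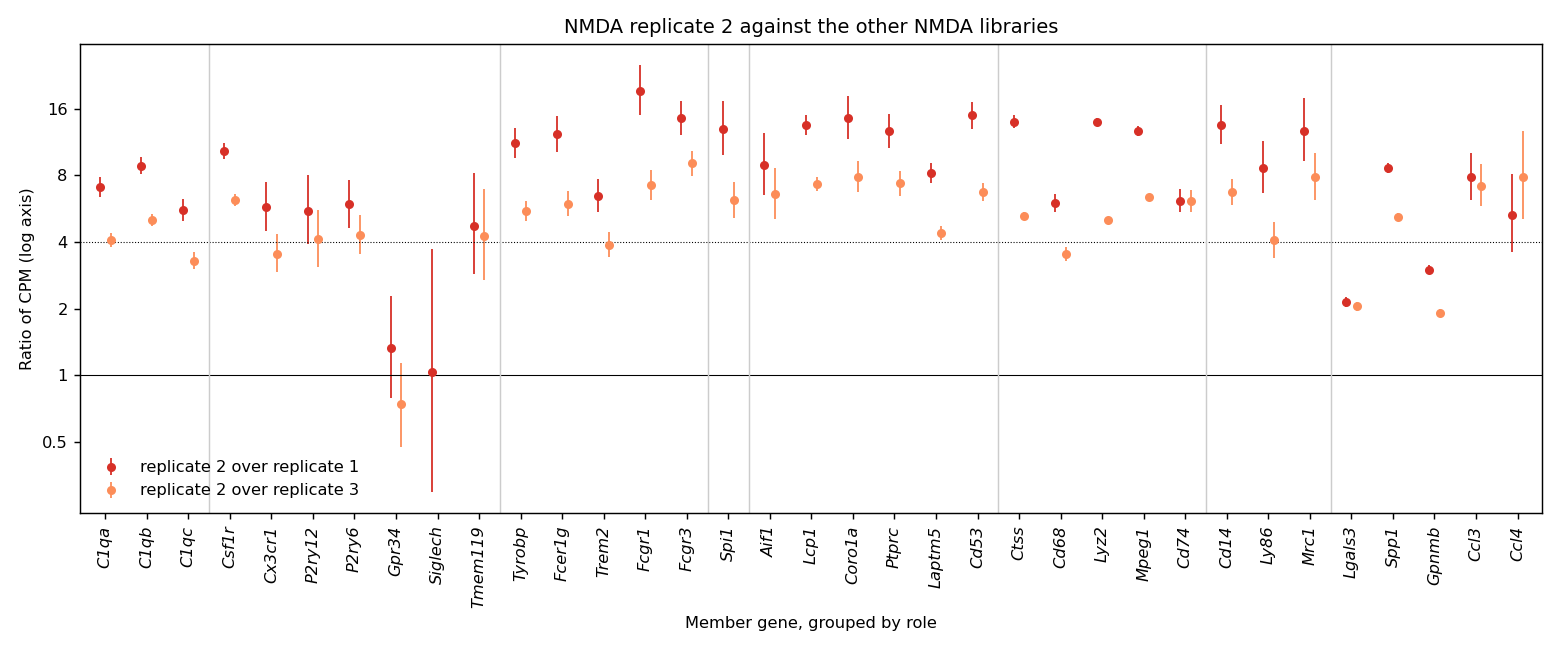
Ratio of CPM in NMDA replicate 2 to replicate 1 and to replicate 3 for each member (x axis, grouped by role), on a log axis with exact 95% counting intervals. The solid line marks a ratio of 1 and the dotted line a ratio of 4; Gpr34, Siglech, Lgals3 and Gpnmb lie lowest, and Siglech has no ratio to replicate 3, where it stood at 0.

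Outside the members, the genes most like them in this pattern were taken as the 10 with the highest ratio of NMDA replicate 2 to the higher of the other NMDA libraries, among genes with at least 20 CPM in replicate 2. Saa3, an acute-phase serum amyloid gene, stood at 2.71, 829 and 7.79 CPM in NMDA replicates 1, 2 and 3. Fpr1, a formyl peptide receptor gene of phagocytes, stood at 0.441, 28.4 and 0.501 CPM, and S100a8, a calcium-binding protein gene of neutrophils and monocytes, at 0.882, 28.3 and 0.779 CPM. Il1b, the cytokine interleukin-1 beta, stood at 9.71, 229 and 13.8 CPM, and Clec4a1, a lectin receptor gene, at 0.63, 34.7 and 2.06 CPM. The lens crystallin genes Cryba1 (0.882, 104 and 1.95 CPM), Cryba2 (0.315, 47.1 and 1.00 CPM), Crybb2 (8.004, 334 and 15.7 CPM) and Cryaa (23.8, 554 and 30.2 CPM) and the transporter gene Slc13a3 (0.504, 21.9 and 1.22 CPM) complete the set. These 10 genes thus included both myeloid and lens genes.

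Counts of members were then set against each other within a library, which does not depend on library size. This comparison was chosen after the values were seen, and it has no test. Counts of Cx3cr1, P2ry12 and Tmem119 together, per 100 counts of the C1q genes together, were 9.51 (95% interval 7.88 to 11.4, exact Clopper-Pearson), 7.12 (6.62 to 7.65) and 8.07 (6.99 to 9.28) in NMDA replicates 1, 2 and 3. They were 226 (193 to 265) in young replicate 2, 119 and 114 in aged replicates 1 and 2, and 127, 141 and 144 in RPC replicates 1, 2 and 3. Young replicate 1 had 96 counts of the receptors and 0 of the C1q genes. All 96 were of P2ry12, whose reads may be shared with Med12l, and Cx3cr1 and Tmem119 stood at 0 there. The NMDA libraries thus lay close together and more than 10-fold below the others, although their summed levels differed.

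Relative to Csf1r the same receptors stood at 22.5, 12.1 and 19.9 per 100 counts in NMDA replicates 1, 2 and 3, at 715 in young replicate 2, at 162 and 139 in aged replicates 1 and 2, and at 277, 231 and 209 in RPC replicates 1, 2 and 3. Lyz2 stood the other way, at 162, 305 and 259 per 100 C1q counts in the NMDA libraries, 15.4 in young replicate 2, 13.6 and 5.52 in aged replicates 1 and 2, and 15.7, 14.3 and 11.8 in RPC replicates 1, 2 and 3. Siglech and Gpr34 together stood at 2.34, 0.405 and 1.98 per 100 C1q counts in the NMDA libraries. They stood at 23.7 and 25.4 in aged replicates 1 and 2, and at 14.6, 17.5 and 29.4 in RPC replicates 1, 2 and 3. In young replicate 2 they stood at 0, below the NMDA libraries, so a low value of this ratio was not particular to NMDA. A level of 0 in a young library may, however, not have the meaning it has in the others. Every NMDA library lay apart from every aged and RPC library in these ratios, and NMDA replicate 2 stood furthest from them.

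**Figure D3:**
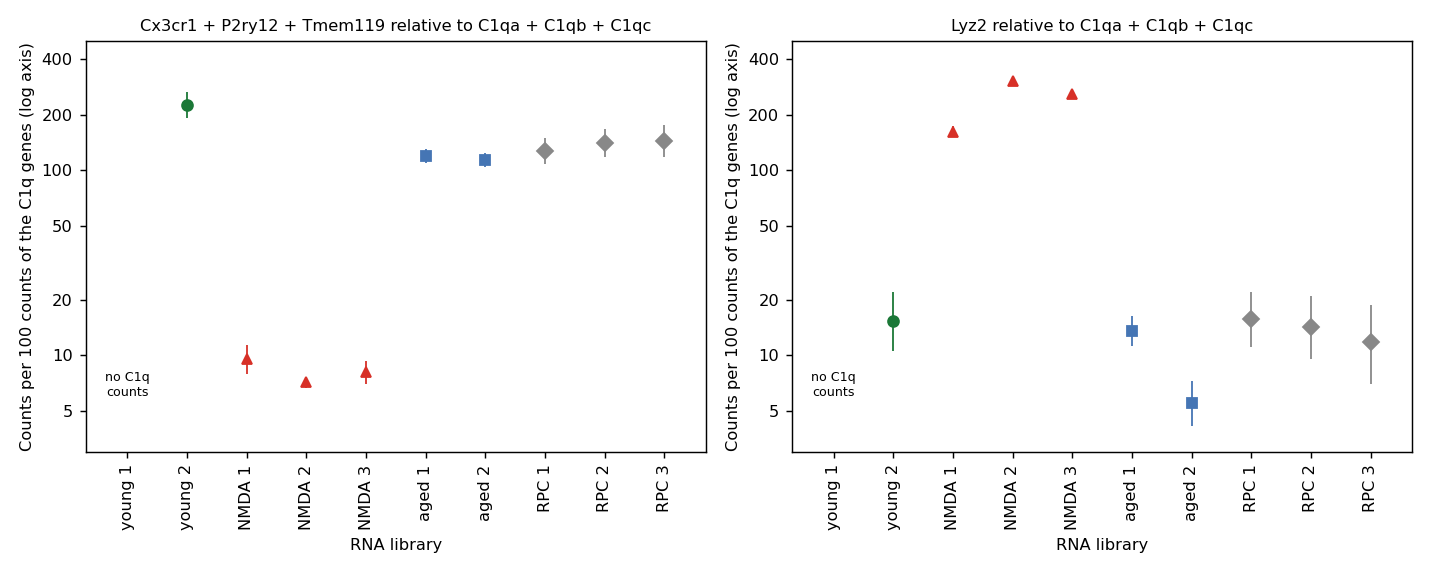
Counts of Cx3cr1, P2ry12 and Tmem119 together (left) and of Lyz2 (right) per 100 counts of C1qa, C1qb and C1qc together, for each RNA library, on a log axis with exact 95% counting intervals. NMDA libraries lie lowest on the left, at 7.12 to 9.51, and highest on the right, at 162 to 305, and young replicate 1 had no C1q counts.

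Compared with aged cells, whose libraries list every member, 21 of the 35 genes were higher after NMDA (10.5% of all genes, edgeR) and 1 was lower (9.8%). In 29 members all NMDA libraries lay above both aged libraries (36.7% of all genes). The median change of the members was 4.18 on the log2 scale against 0.04 for all genes. The C1q chains, Csf1r, Ctss, Laptm5, P2ry6 and Ccl3 lay above the aged libraries in every NMDA library and did not pass. The calls rest on few libraries: 12 higher and 0 lower were left without NMDA replicate 2, 2 without aged replicate 1 and 4 without aged replicate 2, while all genes called higher fell to 7.62%, 3.55% and 2.92%.

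Lyz2 stood at 3.56 and 1.63 CPM in aged cells, below the 139.9 to 1946 CPM after NMDA (log2 8.22 ± 1.51, edgeR adjusted p = 0.00676). Spp1 stood at 0.219 and 4.03 CPM in aged cells (log2 7.33 ± 1.47, edgeR adjusted p = 0.0125). Gpnmb stood at 3.4 and 8.13 CPM (log2 5.39 ± 0.66, edgeR adjusted p = 0.00165) and Lgals3 at 13.05 and 9.63 CPM (log2 4.03 ± 0.59, edgeR adjusted p = 0.00242), and both were still called without either aged library. Siglech was the member called lower: aged cells had 2.36 and 3.76 CPM against 0.378, 0.393 and 0 (log2 -3.63 ± 1.04, edgeR adjusted p = 0.0452), and the call was lost without either aged library, without NMDA replicate 1 or 2, and without a filter on low counts. Gpr34 and Tmem119 also lay below the aged libraries in every NMDA library, at 3.86 and 3.73 CPM and at 8.5 and 7.47 CPM in aged cells, and did not pass (edgeR adjusted p = 0.29 and 0.476).

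**Figure D4:**
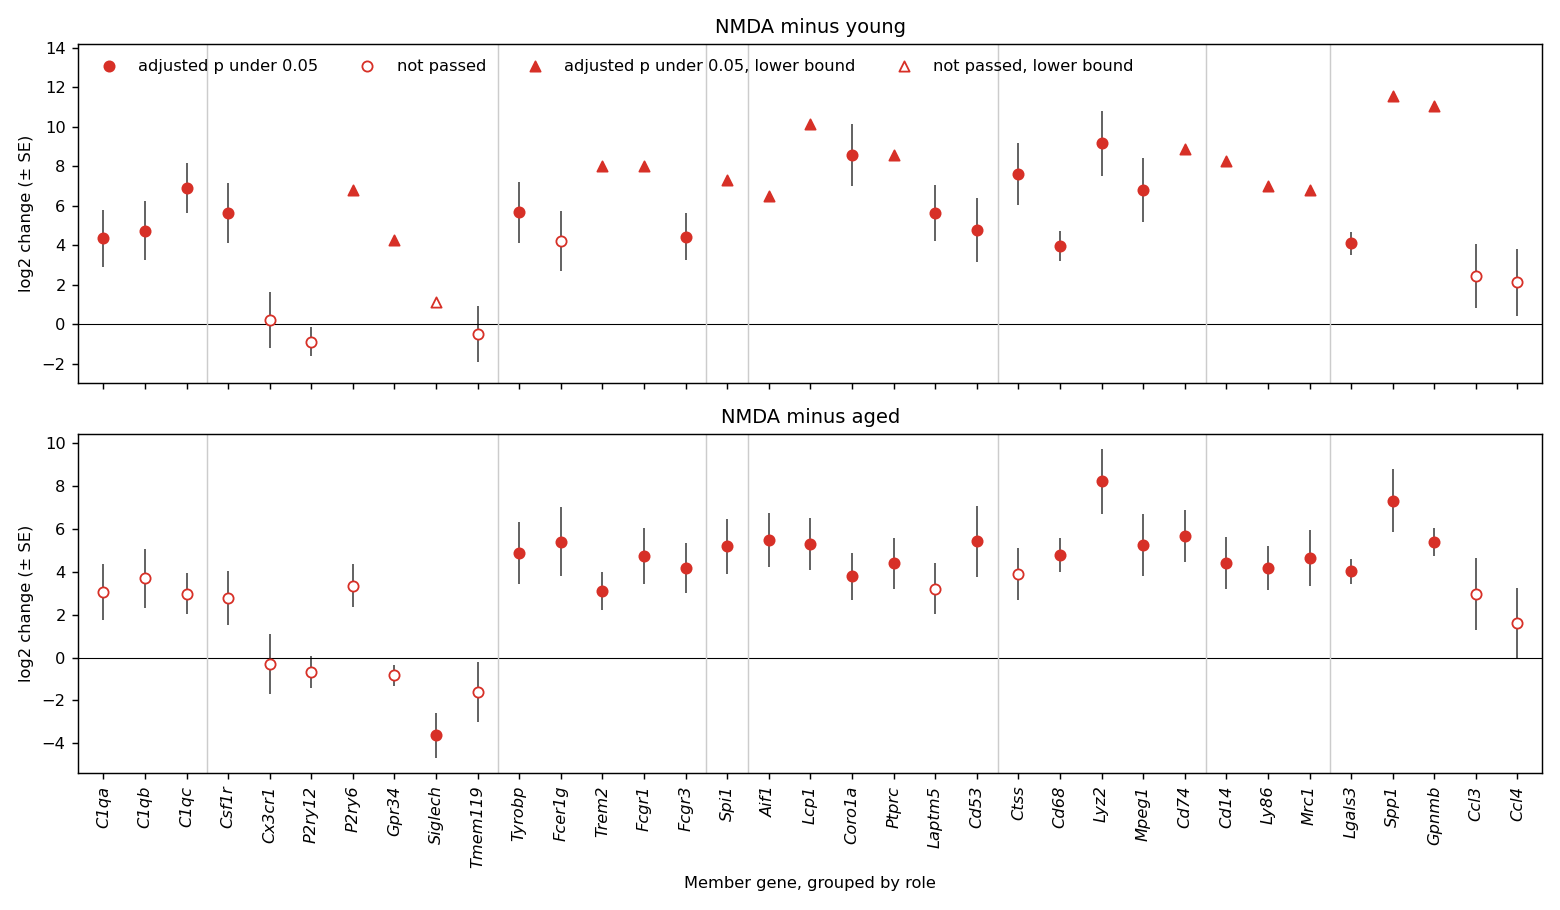
Log2 change of each member (x axis, grouped by role) in NMDA against young (top) and NMDA against aged (bottom) libraries. Circles are fitted changes with SE, triangles are lower bounds for genes at 0 in both young libraries, and filled symbols passed at an adjusted p under 0.05; in the top panel the receptors Cx3cr1, P2ry12 and Tmem119 lie between -0.90 and 0.22, and Spp1, Gpnmb and Lcp1 have the highest bounds.

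Between aged and young cells the question is which of these transcripts differ with age. Of the 35 genes 9 were higher in aged cells, where 21.1% of all genes were called higher, so the members' share (25.7%) was close to the background. None was called lower (5.85% of all genes), with 0 lower also at an unadjusted p under 0.05 and by DESeq2. In 22 members both aged libraries lay above both young ones (31% of all genes). The called genes were C1qc, P2ry6, Gpr34, Siglech, Trem2, Ptprc, Cd14, Ly86 and Gpnmb. Of these only C1qc had counts in a young library (0 and 1.28 CPM against 6.03 and 9.24, log2 3.93 ± 1.20, edgeR adjusted p = 0.0406). The others were at 0 in young cells, with bounds from at least 6.62-fold for Ly86 to at least 48.7-fold for Gpnmb, and at least 32.1-fold for Gpr34.

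The aged libraries agreed closely with each other in several members: C1qa stood at 9.92 and 10.2 CPM, C1qb at 10.3 and 10.1, Cx3cr1 at 14.5 and 15.6, and Coro1a at 2.11 and 2.11. Young replicate 2 had similar or higher levels of C1qa (9.85 CPM), C1qb (11.9), Cx3cr1 (24.2), P2ry12 (19.3) and Tmem119 (8.57), and young replicate 1 had none except P2ry12 (6.31). The count of calls moved with the libraries used, and so did the share of all genes called higher. Without young replicate 1 it was 4 members (27.6% of all genes) and without young replicate 2 it was 12 (35.1%). Without aged replicate 1 it was 5 (14.5%) and without aged replicate 2 it was 4 (14.7%). A fit of these groups alone called 0 (1.93%), and DESeq2 called 16 (23.2%).

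RPCs were compared with young Müller cells as the study's embryonic reference. In RPCs 11 of the 35 genes were higher (35.9% of all genes) and 3 were lower (24.9%), and 18 lay above both young libraries without overlap (46.7%). The members' share called higher (31.4%) was thus not above that of all genes. The genes called higher were P2ry6, Gpr34, Siglech, Trem2, Fcgr1, Spi1, Aif1, Coro1a, Ptprc, Ly86 and Gpnmb. All of them except Coro1a, which had 2 counts in the pooled young libraries, were at 0 in both young libraries. These calls therefore rest on young levels at or near 0, which may not have the meaning they have in other libraries. Aif1 stood at only 0.437 to 0.758 CPM in RPCs. Gpr34 stood at 1.93, 2.26 and 2.97 CPM in RPC replicates 1, 2 and 3, at least 20.2-fold above young cells. Ptprc stood at 2.62, 4.52 and 3.58 CPM, at least 30.2-fold higher. Coro1a stood at 9.02, 10.7 and 8.21 CPM, a ratio of pooled levels of 117 (95% interval 32.3 to 973, exact Clopper-Pearson, counting error only; edgeR adjusted p = 0.00512). RPC libraries differed by less than 2-fold in Gpr34, Ptprc and Coro1a.

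The 3 genes lower in RPCs were Lgals3, Ccl3 and Ccl4. Lgals3 stood at 0.207, 0.271 and 0 CPM in RPCs against 6.18 and 19.2 in young cells (log2 -6.33 ± 0.81, edgeR adjusted p = 0.000193), and both groups were apart. Ccl3 had 1 count in the pooled RPC libraries and Ccl4 had 0, and both were at 0 in young replicate 1 as well, so their calls (edgeR adjusted p = 0.0262 and 0.0477) rest on young replicate 2. Without young replicate 2 only Lgals3 was called lower, as when any 1 RPC library was left out. Without young replicate 1 the number called higher was 6, where 38.3% of all genes were.

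Lcp1 and Coro1a, both actin-binding protein genes of leukocytes, stood in different order in the groups. Lcp1 was at 0.0689, 0.0904 and 0 CPM in RPCs and 3.07 and 3.43 CPM in aged cells. Coro1a was at 8.21 to 10.7 CPM in RPCs and 2.11 in both aged libraries. Cd74 was at 0.344, 0 and 0 CPM in RPCs and 1.26 and 0.783 CPM in aged cells, and Cd14 at 0.181 to 0.344 against 2.27 and 0.933 CPM. RPCs and aged cells were not tested against each other.

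Other genes of microglial biology were followed through lists that do not overlap with the members, with the same edgeR calls. Their counts are to be read against the 30.6% of all genes that were called higher after NMDA. Of 9 tested genes typical of microglia, 7 were higher after NMDA than in young cells, led by Slc2a5 and Fcrls. Slc2a5, a sugar transporter gene, was at 0 in young cells and at 1.26, 0.505 and 0.612 CPM after NMDA (edgeR adjusted p = 0.00193). Its level was higher in aged cells (1.86 and 2.14 CPM) and in RPCs (3.65 to 4.61 CPM) than after NMDA. Fcrls, an Fc receptor-like gene, was at 0 in young cells and at 6.18, 58.3 and 7.40 CPM after NMDA (edgeR adjusted p = 0.00275). Of 15 tested signalling genes downstream of Tyrobp 11 were higher, led by the Src-family kinase gene Lyn (0 in young cells; 29.998, 110.3 and 32.5 CPM; adjusted p = 0.000304) and the adaptor gene Blnk (0; 2.39, 10.7 and 3.62 CPM; adjusted p = 0.0022). Of 10 myeloid transcription factor genes 2 were higher, Runx1 (0; 60.3, 53.4 and 26.8 CPM; adjusted p = 0.000151) and Tfec (0; 0.378, 7.46 and 1.61 CPM; adjusted p = 0.0197). The share of transcription factors called lay below that of all genes, and Runx1 was highest in NMDA replicate 1, unlike the members.

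Of 11 ligands and signals to microglia 4 were higher, led by Tgfb2 (344 and 366 CPM in young cells; 563, 426 and 543 CPM after NMDA; log2 0.63 ± 0.12, edgeR adjusted p = 0.00378) and Il34, a ligand of Csf1r (0; 2.58, 1.80 and 1.00 CPM; adjusted p = 0.00493). The share of ligands called was close to that of all genes, and both named genes were lower in NMDA replicate 2 than in replicate 1. Of 11 other complement genes 7 were higher, led by the inhibitor gene Serping1 (30.7 and 20.99; 113, 146 and 138 CPM; log2 2.46 ± 0.21, edgeR adjusted p = 6.25e-05) and the central component C3 (0; 63.0, 322 and 83.5 CPM; adjusted p = 0.00123). Of 11 genes of phagocyte activation 7 were higher, led by the receptor kinase gene Axl (181 and 221; 576, 504 and 523 CPM; log2 1.52 ± 0.12) and the tetraspanin gene Cd63 (127 and 143; 371, 438 and 340.3 CPM; log2 1.62 ± 0.13). Axl and Cd63 were already abundant in young sorted cells, and NMDA replicate 2 did not stand apart in them.

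Of 6 MHC class II genes 4 were higher, led by H2-DMa (0; 5.80, 17.8 and 5.4 CPM; adjusted p = 0.00113) and H2-Ab1 (0; 8.19, 50.7 and 8.85 CPM; adjusted p = 0.00137). Without NMDA replicate 2, 27.3% of all genes were called higher. In the lists, 5 of the microglia genes, 8 of the signalling genes, 2 of the transcription factors and 3 of the ligands were then called. So were 5 of the complement genes, 7 of the activation genes and 3 of the MHC genes. Against aged cells, 10.5% of all genes were called higher after NMDA and 9.8% lower. Higher were 1 of 9 microglia genes, 5 of 15 signalling genes, 2 of 10 transcription factors and 0 of 11 ligands. Also higher were 5 of 11 complement genes, 10 of 11 activation genes and 3 of 6 MHC genes, and Maf was lower. Of the named genes, Slc2a5, Lyn, Blnk, Runx1, Tgfb2, Il34, Serping1, C3, H2-DMa and H2-Ab1 were also called higher in aged than in young cells. Fcrls, Tfec and Axl were not called there, and Cd63 was lower.

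Markers of other cells were summed in the same libraries. Of the border macrophage genes tested, 5 of 7 were higher after NMDA than in young cells, and the list summed to 50.3, 541 and 85.9 CPM in NMDA replicates 1, 2 and 3 against 4.01 to 30.5 CPM elsewhere. Of the monocyte genes 6 of 8 were higher, with sums of 146, 332 and 75.6 CPM after NMDA, 22.3 and 2.46 in young cells and 88.1 to 107 in RPCs, so NMDA replicate 3 lay below the RPC libraries. The neutrophil list summed to 8.44, 163 and 15.4 CPM after NMDA and at most 3.22 elsewhere, with 3 of 4 tested genes higher and Camp at 0 in all libraries. Lens genes summed to 40.3, 1115 and 59.8 CPM after NMDA and 0 to 56.5 elsewhere, with 2 of 7 higher, close to the share of all genes. Inner retinal neuron genes summed to 116, 235 and 133 CPM after NMDA and 56 to 114 elsewhere, with 2 of 10 higher.

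In other lists NMDA replicate 2 did not stand highest. Photoreceptor genes summed to 7073, 10087 and 11389 CPM in NMDA replicates 1, 2 and 3. They summed to 13858 and 9567 CPM in young and 8452 and 5544 CPM in aged replicates 1 and 2. In RPCs they summed to 4.81 to 8.13 CPM. In every sorted library this sum lay above that of the members. Of the 10 photoreceptor genes tested 3 were higher and 0 lower after NMDA than in young cells. Vascular genes summed to 4166, 2876 and 3766 CPM in NMDA replicates 1, 2 and 3 and to 3695 to 4040 CPM in young and aged cells, with 6 of 9 tested genes higher and 1 lower after NMDA. T and NK cell genes summed to 2.19 CPM in NMDA replicate 2, the lowest of the 10 libraries, and to 3.55 to 5.75 elsewhere, with Cd3d, Cd3g, Nkg7 and Gzmb at 0 in all. The Müller list summed to 23242, 17291 and 23333 CPM in NMDA replicates 1, 2 and 3, 58045 and 48801 in young and 46832 and 47416 in aged cells. Of its 10 genes Glul, Dkk3 and Rlbp1 were lower after NMDA than in young cells, Crym and Vim were higher, and 5 did not pass. The part of these cell types, and of NMDA replicate 2 alone, in the changes of the members was not tested beyond the values given without that library.

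**Figure D5:**
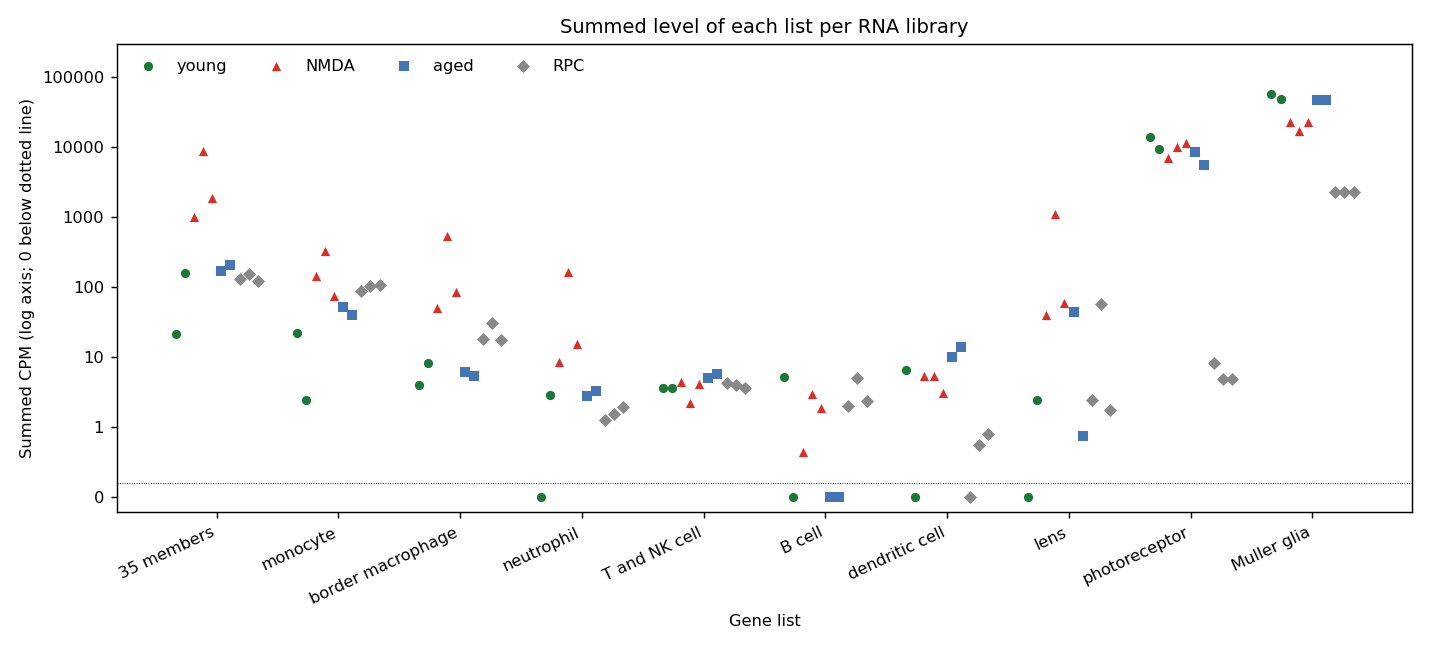
Summed CPM of the 35 members and of 9 marker lists (x axis) in each RNA library, on a log axis with 0 below the dotted line; points are single libraries. NMDA replicate 2 is the highest library for the members and for the monocyte, border macrophage, neutrophil and lens lists, and the lowest of the sorted libraries for the Müller list.

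Methylation was measured in separate libraries, 3 for each group, by reduced representation bisulfite sequencing, which covers CpG-rich fragments. A window was the gene with 1000 bases on each side and at least 5 CpG positions read at least 10 times in all 12 libraries, and 15 members on autosomes had one. After NMDA 1 of these 15 windows changed, against 51.5% of the 13363 windows tested. In aged cells 5 changed (55.5% of all) and in RPCs 6 (57.9%), so the members' share lay below the background in each comparison, and that difference was not tested.

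The window that changed after NMDA was that of Lgals3 (chr14:47372860-47387167, 34 positions). Its methylation was 11.3%, 17.7% and 17.2% in young replicates 1, 2 and 3 and 31.3%, 30.02% and 29.7% in NMDA replicates 1, 2 and 3, 16.3 points higher over pooled reads (quasi-binomial F test, adjusted p = 0.00437), and the groups did not overlap. In aged cells it was 25.8%, 27.2% and 21.5% (10.8 points higher, adjusted p = 0.0349 by the same test). The other windows that changed in aged cells were those of P2ry6, Coro1a, Ptprc and Mrc1, which fell by 2.77, 2.45, 3.80 and 27.4 points by the same test. The young libraries of Mrc1 were widely spread (53.1% ± 22.8 (SD, n = 3)). The window of Tyrobp stood at 76.1% ± 4.83 (SD, n = 3) in young cells and 65.8% ± 7.03 after NMDA and did not pass (quasi-binomial model, adjusted p = 0.0797). Windows of Ctss, Cd74 and P2ry12 were mostly methylated in every group, with means of 80.8% to 93.6%, and those of Ptprc, Coro1a and P2ry6 mostly unmethylated in sorted cells, at 1.72% to 6.17%. In RPCs the window of Ptprc was at 36.9%, 27.7% and 31.4%, 25.4 points above young cells, whose libraries held 4.86% to 5.80%. The other windows that changed in RPCs were those of Lgals3, Lcp1 and Fcgr3, which were higher, and of Fcgr1 and Coro1a, which were lower.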

How the data were processed

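The deposited RNA values were raw counts per gene symbol, 1 column per library. The deposited methylation files give, per the file headers, the coverage (a count of reads) at each CpG position and the percent of reads with and without a methylated cytosine, listed by the authors at 10 reads or more. The authors' tools, per the submitters' processing notes, included Bismark 0.16.3, methylKit 1.4.0, Trim Galore 0.4.3 and HISAT2 2.0.4, with the builds mm10 and GRCm38; the counting tool and its strand setting are not given in the sources used here.

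CPM used all counts of a library. All 10 RNA libraries were fitted together (R 4.3.3, edgeR 4.0.16, quasi-likelihood, TMM scaling, 18931 genes after filtering, 6 residual degrees of freedom, Benjamini-Hochberg adjustment over all genes, threshold 0.05). The SE of a log2 change was computed as its absolute value divided by the square root of the F statistic of the same test. It is therefore not a measure of spread independent of the p-value. Fold bounds use 3 pooled counts. The replicate number was not taken to pair the samples: deviations of same-numbered libraries correlated at -0.057 to 0.078 over 13 pairs. Young and aged groups have 2 libraries each, so some pairs repeat each other, and these correlations cannot exclude a shared batch. Methylated and unmethylated reads were summed per window and fitted by a quasi-binomial model with dispersion moderated by limma 3.58.1. The scripts were tested on simulated data. Labels call the libraries replicates, for NMDA and RPC without saying that they came from separate animals, so p-values may measure technical spread there. Gene positions and promoters are RefSeq's (GRCm38.p6).

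The members and lists were chosen with earlier results of these data known. Named genes are all members, Rlbp1, Glul and the 2 genes of each list with the smallest adjusted p among those called in NMDA against young. Also named are the 10 other genes with the highest ratio of NMDA replicate 2 to the other NMDA libraries. Lists without NMDA replicate 2 were added after the data were seen.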

Additional observations from a re-analysis of the deposited data

How the results depend on the processing

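Settings were RLE or upper-quartile scaling, no filter or a filter of 5 CPM in 2 libraries, DESeq2 1.42.0, a block for the replicate number, a fit restricted to the 2 groups compared, and leaving out each library in turn. Percentages in brackets give the share of all genes tested that were called in the same direction. Of the members called higher in NMDA against young, RLE scaling gave 28 (29.5%) and upper-quartile scaling 28 (26.9%). DESeq2 gave 29 (32.2%) and no filter 29 (20.3%). The 5 CPM filter gave 25 of 30 members tested (25.8%), and the 2 groups alone 18 of 34 (20.9%). Leaving out 1 NMDA library gave 23 to 29 higher (27.2% to 27.7%) and 0 to 1 lower (11.1% to 11.9%). The replicate number was not taken as a pairing, and with the replicate block 28 were called higher (25.3%). In NMDA against aged the replicate block gave 11 higher (5.96%) and 0 lower (5.91%). None was lower without a filter (5.76%). None was lower with the 5 CPM filter either, which removed Siglech before testing. Leaving out 1 NMDA library gave 12 to 23 higher (7.62% to 8.71%) and 0 to 1 lower (6.69% to 7.66%). In aged against young the 5 CPM filter gave 5, DESeq2 16, the 2 groups alone 0 and leaving out a library 4 to 12. In RPC against young the 2 groups alone gave 1 lower, and leaving out a library gave 6 to 14 higher and 1 to 3 lower. The cause of these moves was not tested; a filter or a left-out library also removes genes or degrees of freedom.

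Over all settings the fitted change took both signs in 3 of 35 members in NMDA against young, 1 in NMDA against aged, 11 in aged against young and 11 in RPC against young; in aged against young these included Cd53 (-1.68 to 8.18) and Fcer1g (-2.46 to 2.82). Among members described singly in a comparison, over the fits that each left out 1 library, the log2 change in NMDA against young ran from -0.87 to 10.99 in Cx3cr1 (-0.77 without young replicate 1), -2.07 to 0.10 in P2ry12 and -1.62 to 8.76 in Tmem119. In aged against young it ran from -0.01 to 10.73 in C1qb and -0.47 to 11.29 in Cx3cr1. In RPC against young it ran from -1.27 to 9.20 in C1qa, -0.57 to 10.17 in C1qb, -0.75 to 11.02 in Cx3cr1, -1.91 to 8.36 in Tmem119, -8.86 to 2.21 in Ccl3 and -8.31 to 0.0 in Ccl4. The highest of these values came without young replicate 2, and the lowest without young replicate 1, or without NMDA replicate 2 in the NMDA comparison and RPC replicate 2 for Ccl3. Upper-quartile scaling turned Cx3cr1 in NMDA against young to -0.04, and the replicate block turned Tmem119 there to 0.27 and, in RPCs, C1qa to 0.79 and Tmem119 to 0.25. Without the highest member of each library, the mean summed level was 165 CPM in aged cells and 116 in RPCs.

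Of member windows, 2 changed in NMDA against young on the gene span alone, 1 to 2 with a library left out; in aged against young 3 changed at 20 reads or more, and 3 to 5 with a library left out. The RNA depth, with 35 genes often at few counts, limits what a level of 0 in a young library can show.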
